A study of Mus musculus with 12 samples.

Results

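The genes described here are 10 genes of tumour necrosis factor (TNF) receptor signalling, given by symbol and matched to mouse Ensembl genes: the ligands Tnf and Ltb, the receptors Tnfrsf1a, Tnfrsf1b and Tnfrsf9, the adaptor Traf1, the ubiquitin ligase Birc3, the death inhibitor Cflar, and the inhibitors Tnfaip3 and Tnip1. They are 10 of the 55471 genes in the deposited count table, and all 10 were among the 17197 genes with enough counts to be tested. Total RNA of Ba/F3, a pro-B cell line from mouse whose survival depends on interleukin-3 (IL-3), was sequenced in 3 groups with 4 lines per group that the labels call biologically independent. BCR-ABL1 lines and SFPQ-ABL1 lines, which carry leukaemia fusion genes that join BCR or SFPQ to the tyrosine kinase ABL1, were grown without IL-3. MSCV lines carry the empty retroviral vector and were grown with IL-3 at 0.5 ng/ml. A comparison of either fusion with MSCV therefore holds the fusion and the absence of IL-3 together, and these cannot be told apart, whereas SFPQ-ABL1 against BCR-ABL1 sets apart lines that all grew without IL-3. Whether a line was a single clone or a pool is not given in the sources used here.

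TNF family ligands bind trimeric receptors that recruit TRAF adaptors and ubiquitin ligases. The resulting complex activates NF-kB transcription factors and MAP kinases, and receptors with a death domain can also start caspase-8-dependent cell death. Several genes of the pathway, among them Tnfaip3, Birc3, Traf1 and Tnf itself, are textbook NF-kB targets, so that the pathway feeds back on itself.

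Library totals ran from 59355018 to 80616227 gene counts, and a level of 1 CPM, the unit of counts scaled to library size, was 59.4 to 80.6 counts. The Abl1 exon held by both fusions stood at 9.23 to 20.8 CPM in BCR-ABL1 lines and 4.36 to 26.8 CPM in SFPQ-ABL1 lines, against 0.0454 to 0.0529 CPM in MSCV lines. In the same exon table the Sfpq exon of the fusion reached 3.60 CPM in BCR-ABL1 line 4, the highest of the lines without that fusion, and SFPQ-ABL1 line 2 had the lowest Abl1 exon level of the fusion lines. Of 14 early B cell markers 4 passed the count filter. The 14 markers summed to 351 to 470 CPM in BCR-ABL1 lines, 294 to 431 CPM in SFPQ-ABL1 lines and 430 to 539 CPM in MSCV lines, nearly all from Ptprc, Cd79a and Cd79b, whereas the defining markers Pax5 and Ebf1 were at or near 0 and Il7r was at 0 in every line. Ptprc was the largest part and its groups overlapped. Cd79a stood at 32.4 to 48.7 CPM in BCR-ABL1 lines, 50.3 to 64.7 CPM in SFPQ-ABL1 lines and 87.7 to 96.5 CPM in MSCV lines. Cd79b had the same order, at 14.9 to 24.5, 32.5 to 38.3 and 41.2 to 52.9 CPM. Granulocyte and monocyte markers (11 genes) summed to 213 to 387 CPM in BCR-ABL1 lines, 558 to 833 CPM in SFPQ-ABL1 lines and 437 to 1108 CPM in MSCV lines. Most of each sum came from Ms4a3 and Prtn3, and the markers did not all move together. Ms4a3 stood at 156 to 305 CPM in BCR-ABL1 lines, 431 to 474 CPM in SFPQ-ABL1 lines and 342 to 703 CPM in MSCV lines. Itgam went the other way against MSCV, at 0.656 to 2.25 CPM in BCR-ABL1 lines and 0.0630 to 0.367 CPM in MSCV lines. Mast cell and basophil markers (8 genes, with Tpsb2 and Prss34 at 0 in every line) summed to 9.42 to 52.6 CPM in BCR-ABL1 lines, 9.22 to 14.2 CPM in SFPQ-ABL1 lines and 12.5 to 16.5 CPM in MSCV lines, and the highest sum was that of BCR-ABL1 line 2. T and NK cell markers (10 genes, with Cd8a, Ncr1 and Cd2 at 0 in every line) summed to 13.5 to 23.5 CPM in BCR-ABL1 lines, 16.0 to 37.8 CPM in SFPQ-ABL1 lines and 19.6 to 41.0 CPM in MSCV lines. Erythroid and megakaryocyte markers (6 genes) summed to 891 to 1777 CPM in BCR-ABL1 lines, 894 to 2044 CPM in SFPQ-ABL1 lines and 1277 to 2024 CPM in MSCV lines. Of these, the platelet factor gene Pf4 stood at 3.63 to 12.5 CPM in BCR-ABL1 lines, 0.0372 to 0.198 CPM in SFPQ-ABL1 lines and 0.0529 to 0.288 CPM in MSCV lines, and the erythroid factor gene Klf1 at 12.1 to 29.4 CPM in BCR-ABL1 lines, 29.2 to 66.9 CPM in SFPQ-ABL1 lines and 36.3 to 71.8 CPM in MSCV lines. The part of these markers in the results below was not tested. In bulk RNA, fewer cells of a type and less RNA per cell cannot be told apart.

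Tnf, Tnfrsf9, Traf1 and Cflar were higher in BCR-ABL1 lines than in MSCV lines, and none of the 10 genes was lower. Their lines did not overlap with MSCV lines in these 4 genes. Called genes had an adjusted p under 0.05 in the edgeR quasi-likelihood test with Benjamini-Hochberg adjustment over all genes tested, and the same rule called 32.1% of all 17197 genes in this comparison, 15.8% higher and 16.3% lower. Over all genes, 15.7% were higher and 16% lower in BCR-ABL1 lines without overlap. The median log2 fold change was 0.30 over the 10 genes and -0.01 over all genes, and the median size of the change regardless of direction was 0.57 over the 10 genes and 0.34 over all genes. A share of 40% of 10 genes rests on few genes and is given as a description.

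None of the 10 genes was called between SFPQ-ABL1 and MSCV lines by edgeR, DESeq2 or limma-voom, where 1.79% of all genes were called by edgeR, 0.814% higher and 0.977% lower. That share rests on 308 genes, a count that was 1131 with DESeq2 and ranged from 33 without MSCV line 3 to 467 without SFPQ-ABL1 line 2. Lines did not overlap in 0 of the 10 genes, and over all genes they did not in 5% that were higher and 6.24% that were lower. At an unadjusted p under 0.05 there was 1 gene, Tnip1. Between SFPQ-ABL1 and BCR-ABL1 lines, Tnf, Tnfrsf9 and Traf1 were lower in SFPQ-ABL1 lines without overlap and none of the 10 was higher, against 26% of all genes called, 13.2% higher and 12.8% lower. Over all genes, 13.9% were higher and 14% lower in SFPQ-ABL1 lines without overlap. Without library normalization factors 61.9% of the genes called between the fusions, and 64.8% of those called between SFPQ-ABL1 and MSCV, were higher in SFPQ-ABL1, against 50.7% and 45.5% with them. The comparisons of both fusions with MSCV share the MSCV lines, and those of BCR-ABL1 with MSCV and of SFPQ-ABL1 with BCR-ABL1 share the BCR-ABL1 lines, so that a gene high in BCR-ABL1 lines appears in both.

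**Figure D1:**
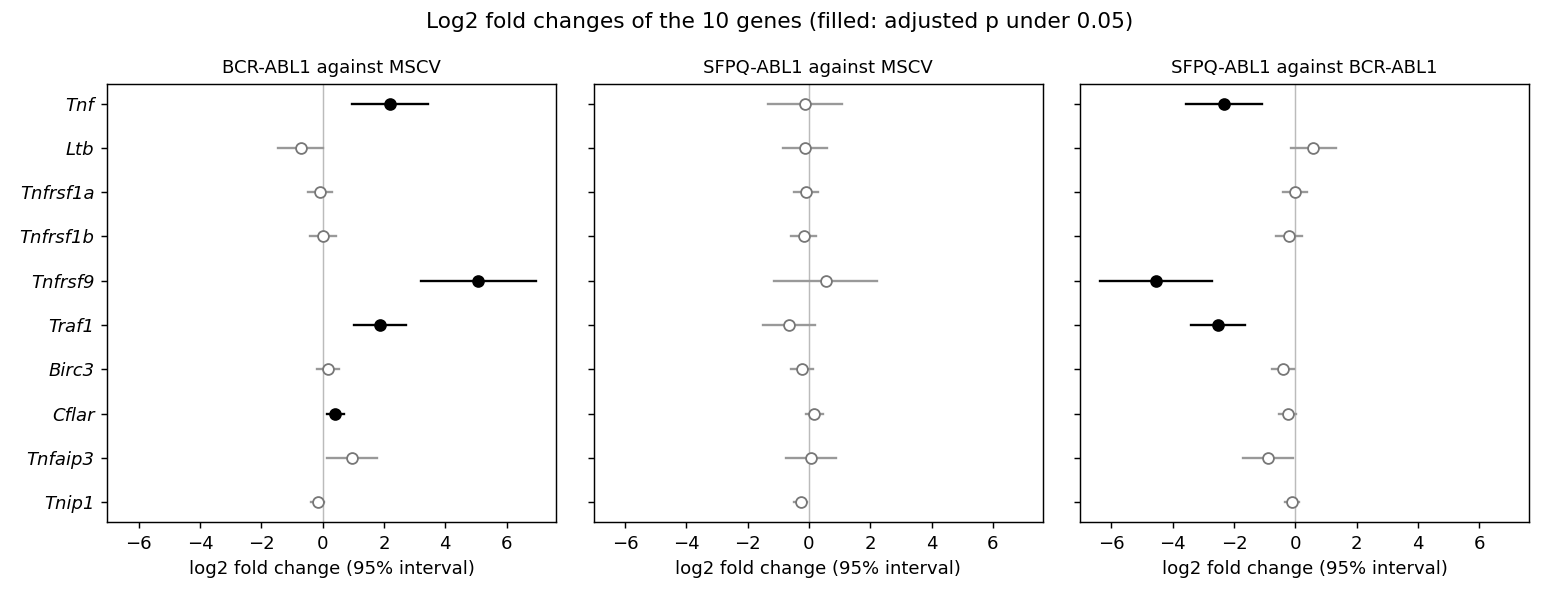
Log2 fold change of each of the 10 genes in the 3 comparisons, with 95% intervals from the edgeR quasi-likelihood fit. Filled points passed an adjusted p under 0.05, and the intervals of Tnf, Tnfrsf9 and Traf1 lie above 0 in BCR-ABL1 against MSCV and below 0 in SFPQ-ABL1 against BCR-ABL1.

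The promoters of the 10 genes were searched for letters of the kappa B element bound by NF-kB, since several of the genes are known NF-kB targets. RefSeq promoter windows on GRCm38.p6, from 250 bases before to 50 bases after a gene's start, were matched for 10 of 10 genes and gave 12 windows. Both strands were read. A kappa B match was present in 4 of the 10 genes, namely Ltb, Tnfrsf9, Tnfaip3 and Tnip1, and in 4.51% of all 32851 windows. Of these 4 genes, Tnfrsf9 passed the test in BCR-ABL1 against MSCV, whereas the windows of the other called genes, Tnf, Traf1 and Cflar, did not hold these letters. The GAS element read by STAT factors (TTCNNNGAA) was present in 5 of the genes, namely Ltb, Tnfrsf1a, Tnfrsf1b, Tnfrsf9 and Tnip1, and in 8.30% of all windows. The AP-1 element (TGANTCA) was present in Tnfrsf9 and Tnfaip3 and in 7.81% of all windows, and no match of either overlapped a kappa B match. A match describes letters, and a missing match says only that these letters are not in the window. Shown are the 150 bases before the start of the 3 genes that were called in both comparisons with BCR-ABL1 lines and of Tnip1, which holds a kappa B match and was not called, each 5′ to 3′ on the gene's strand with kappa B letters in capitals. The stretches are Tnf at chr17:35202008-35202157 on the minus strand, Tnfrsf9 at chr4:150927849-150927998 on the plus strand, Traf1 at chr2:34961773-34961922 on the minus strand and Tnip1 at chr11:54962941-54963090 on the minus strand.
Tnf: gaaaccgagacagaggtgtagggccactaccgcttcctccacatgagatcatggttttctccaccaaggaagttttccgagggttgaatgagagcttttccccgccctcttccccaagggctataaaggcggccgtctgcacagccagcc
Tnfrsf9: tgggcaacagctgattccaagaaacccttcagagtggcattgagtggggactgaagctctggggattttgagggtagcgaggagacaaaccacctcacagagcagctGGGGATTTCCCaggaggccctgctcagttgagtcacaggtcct
Traf1: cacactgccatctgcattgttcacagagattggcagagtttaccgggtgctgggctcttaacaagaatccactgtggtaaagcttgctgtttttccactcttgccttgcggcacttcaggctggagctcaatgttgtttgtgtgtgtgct
Tnip1: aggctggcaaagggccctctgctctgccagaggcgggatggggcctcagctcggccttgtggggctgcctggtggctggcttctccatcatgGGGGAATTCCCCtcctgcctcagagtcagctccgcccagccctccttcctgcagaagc
Tnfrsf9 has 2 RefSeq starts, and the stretch shown lies before the downstream one. Its kappa B letters begin 43 bases before that start, the AP-1 letters 15 bases and the GAS letters 136 bases before it, whereas the window of the upstream start holds none of the 3 elements. In Tnip1 the overlapping kappa B letters begin 58 bases before the start.

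Tnf, the ligand of both TNF receptors, is a gene of chromosome 17 (ENSMUSG00000024401, mm10 chr17:35199381-35202007). It stood at 5.38, 10.8, 11.0 and 12.3 CPM in BCR-ABL1 lines 1 to 4, at 0.442, 1.83, 1.89 and 3.78 CPM in SFPQ-ABL1 lines 1 to 4, and at 1.54, 0.672, 3.68 and 2.75 CPM in MSCV lines 1 to 4 (library-scaled CPM, as for all genes below). All 4 BCR-ABL1 lines lay above every other line, while SFPQ-ABL1 and MSCV lines overlapped. Tnf averaged 9.87 ± 3.07 CPM in BCR-ABL1 lines and 2.16 ± 1.32 CPM in MSCV lines (SD, n = 4 each), a 4.58-fold difference with a log2 fold change of 2.19 (SE 0.57, 95% interval 0.97 to 3.42, edgeR adjusted p = 0.0101). Its mean of 1.98 ± 1.37 CPM in SFPQ-ABL1 lines was 4.99-fold lower than in BCR-ABL1 lines (log2 fold change -2.32, SE 0.57, edgeR adjusted p = 0.0102). Against MSCV lines the SFPQ-ABL1 value was -0.13 on the log2 scale (95% interval -1.33 to 1.07, edgeR adjusted p = 0.932).

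Ltb, lymphotoxin beta, is a membrane protein that pairs with the product of Lta and signals through the lymphotoxin beta receptor. Its gene (ENSMUSG00000024399, mm10 chr17:35194439-35196320) ends 3060 bases from Tnf, and Lta lies 1157 bases beyond the opposite end of Tnf. Ltb stood at 24.3, 51.0, 30.9 and 40.7 CPM in BCR-ABL1 lines, at 34.9, 28.3, 81.7 and 75.4 CPM in SFPQ-ABL1 lines, and at 43.5, 49.1, 78.7 and 69.6 CPM in MSCV lines. The groups overlapped, with BCR-ABL1 line 2 above the lower MSCV lines. The log2 fold change of BCR-ABL1 against MSCV was -0.71 (95% interval -1.44 to 0.01, edgeR adjusted p = 0.124), and that of SFPQ-ABL1 against BCR-ABL1 was 0.58 (95% interval -0.14 to 1.31, edgeR adjusted p = 0.221). For SFPQ-ABL1 against MSCV it was -0.13 (95% interval -0.85 to 0.59, edgeR adjusted p = 0.872). None passed the test.

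Lta, a neighbour of Tnf that was in the list of other TNF family ligands, had few reads. Its counts were 69, 133, 47 and 67 in BCR-ABL1 lines, 7, 23, 15 and 49 in SFPQ-ABL1 lines, and 5, 1, 4 and 3 in MSCV lines. The BCR-ABL1 lines, at 1.13 ± 0.484 CPM, lay above the MSCV lines, at 0.0438 ± 0.0214 CPM (SD, n = 4 each). The fitted difference was 24.7-fold (log2 fold change 4.62, SE 0.66, edgeR adjusted p = 0.000269), and it rests on MSCV counts of 1 to 5 per line. The SFPQ-ABL1 mean of 0.344 ± 0.316 CPM was 3.33-fold lower than that of BCR-ABL1 lines (edgeR adjusted p = 0.0288), and against MSCV lines it missed the threshold (log2 fold change 2.89, edgeR adjusted p = 0.0501). The fusion groups overlapped, with SFPQ-ABL1 line 4 at 0.801 CPM and BCR-ABL1 line 3 at 0.714 CPM. The lowest SFPQ-ABL1 line, at 0.0938 CPM, was above the highest MSCV line, at 0.0629 CPM. Thus within the Ltb, Tnf and Lta cluster, Tnf and Lta were higher in BCR-ABL1 lines than in MSCV lines and Ltb was not called.

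Tnfrsf1a encodes TNF receptor 1, which carries a death domain, and Tnfrsf1b encodes TNF receptor 2, which lacks one and recruits TRAF2. Tnfrsf1a (ENSMUSG00000030341, mm10 chr6:125349362-125362484) ranged from 61.9 to 107 CPM in BCR-ABL1 lines, from 69.4 to 97.8 CPM in SFPQ-ABL1 lines and from 71.7 to 111 CPM in MSCV lines. Tnfrsf1b (ENSMUSG00000028599, mm10 chr4:145213463-145246870) ranged from 3.99 to 5.15 CPM in BCR-ABL1 lines, from 2.95 to 4.59 CPM in SFPQ-ABL1 lines and from 3.55 to 5.57 CPM in MSCV lines. For both receptors the 3 groups lay over each other. Log2 fold changes of BCR-ABL1 against MSCV were -0.08 (95% interval -0.47 to 0.31) for Tnfrsf1a and 0.02 (-0.40 to 0.44) for Tnfrsf1b, and those of SFPQ-ABL1 against MSCV were -0.11 (-0.50 to 0.28) and -0.18 (-0.60 to 0.24) in the same order. SFPQ-ABL1 against BCR-ABL1 gave -0.03 (-0.42 to 0.36) for Tnfrsf1a and -0.20 (-0.62 to 0.22) for Tnfrsf1b. These intervals were narrower than those of Tnf. The within-library log2 ratio of Tnfrsf1b to Tnfrsf1a counts, which needs no library scaling, averaged -4.31 ± 0.24 in BCR-ABL1 lines, -4.51 ± 0.53 in SFPQ-ABL1 lines and -4.43 ± 0.25 in MSCV lines (SD, n = 4 each). The differences were 0.12 for BCR-ABL1 against MSCV (exact two-sided permutation p = 0.514), -0.09 for SFPQ-ABL1 against MSCV (exact p = 0.743) and -0.21 for SFPQ-ABL1 against BCR-ABL1 (exact p = 0.514). All 3 had an adjusted exact p of 0.743, and 0.0286 is the smallest p that 70 splits of 4 against 4 lines allow. Over the 12 lines Tnfrsf1a had 15.1 to 33.2 times the counts of Tnfrsf1b, as counts per gene and not per length.

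Tnfrsf9 encodes 4-1BB (CD137), a receptor without a death domain that is best known as a costimulator on activated T cells and signals through TRAF1 and TRAF2. The gene (ENSMUSG00000028965, mm10 chr4:150914562-150946102) had 33.7, 196, 42.1 and 55.3 CPM in BCR-ABL1 lines 1 to 4, 0.281, 4.13, 1.14 and 8.67 CPM in SFPQ-ABL1 lines 1 to 4, and 2.72, 2.51, 1.51 and 2.93 CPM in MSCV lines 1 to 4. All BCR-ABL1 lines were above all other lines, and line 2 of that group was 3.54 times the highest of its other lines. The means were 81.7 ± 76.5 CPM in BCR-ABL1 lines and 2.42 ± 0.631 CPM in MSCV lines (SD, n = 4 each), a 33.8-fold difference (log2 fold change 5.08, SE 0.87, 95% interval 3.21 to 6.95, edgeR adjusted p = 0.000849). Without BCR-ABL1 line 2 it was 18.1-fold (edgeR adjusted p = 0.00230). SFPQ-ABL1 lines averaged 3.56 ± 3.79 CPM, 23.2-fold lower than BCR-ABL1 lines (log2 fold change -4.54, SE 0.84, 95% interval -6.36 to -2.72, edgeR adjusted p = 0.00212). That difference was 12.4-fold without BCR-ABL1 line 2 and 43.9-fold without SFPQ-ABL1 line 4, the SFPQ-ABL1 line with the most Tnfrsf9. Between SFPQ-ABL1 and MSCV lines the log2 fold change was 0.54 (95% interval -1.14 to 2.22), with SFPQ-ABL1 lines on both sides of the MSCV lines.

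A first exon lies at each of the RefSeq starts of Tnfrsf9. The upstream one (mm10 chr4:150920155-150920260) had 3, 3, 1 and 1 exon counts in BCR-ABL1 lines and 0 in every other line. The downstream one (mm10 chr4:150927999-150928085), which follows the kappa B letters printed above, had 0, 5, 1 and 3 exon counts in BCR-ABL1 lines, 0, 1, 0 and 0 in SFPQ-ABL1 lines and 0 in MSCV lines. With 8 counts on the upstream and 9 on the downstream first exon over all BCR-ABL1 lines, the counts are too few to compare the starts. Camta1, on the opposite strand, overlaps Tnfrsf9, and as the use of strand is not given in the sources used here, its reads cannot be told apart from those of Tnfrsf9 there. Camta1 itself ranged from 17.8 to 20.5 CPM in BCR-ABL1 lines, 14.2 to 17.9 CPM in SFPQ-ABL1 lines and 14.1 to 17.8 CPM in MSCV lines.

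Traf1, an adaptor that binds TRAF2 and is itself induced by NF-kB, also separated BCR-ABL1 lines from all others. Its gene (ENSMUSG00000026875, mm10 chr2:34941750-34961772) had 5.93, 18.6, 7.80 and 8.77 CPM in BCR-ABL1 lines, 0.750, 2.23, 1.68 and 2.49 CPM in SFPQ-ABL1 lines, and 1.94, 3.82, 2.80 and 2.66 CPM in MSCV lines. BCR-ABL1 line 2 was again the highest, at 2.12 times the next line, and the lowest BCR-ABL1 line was above every line of the other groups. Traf1 averaged 10.3 ± 5.66 CPM in BCR-ABL1 lines and 2.80 ± 0.775 CPM in MSCV lines (SD, n = 4 each), 3.66-fold higher (log2 fold change 1.87, SE 0.40, 95% interval 1.02 to 2.73, edgeR adjusted p = 0.00319). The SFPQ-ABL1 mean of 1.79 ± 0.769 CPM was 5.75-fold lower than the BCR-ABL1 mean (log2 fold change -2.52, SE 0.41, 95% interval -3.41 to -1.64, edgeR adjusted p = 0.000937). SFPQ-ABL1 against MSCV gave -0.65 (95% interval -1.50 to 0.20, edgeR adjusted p = 0.401).

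**Figure D2:**
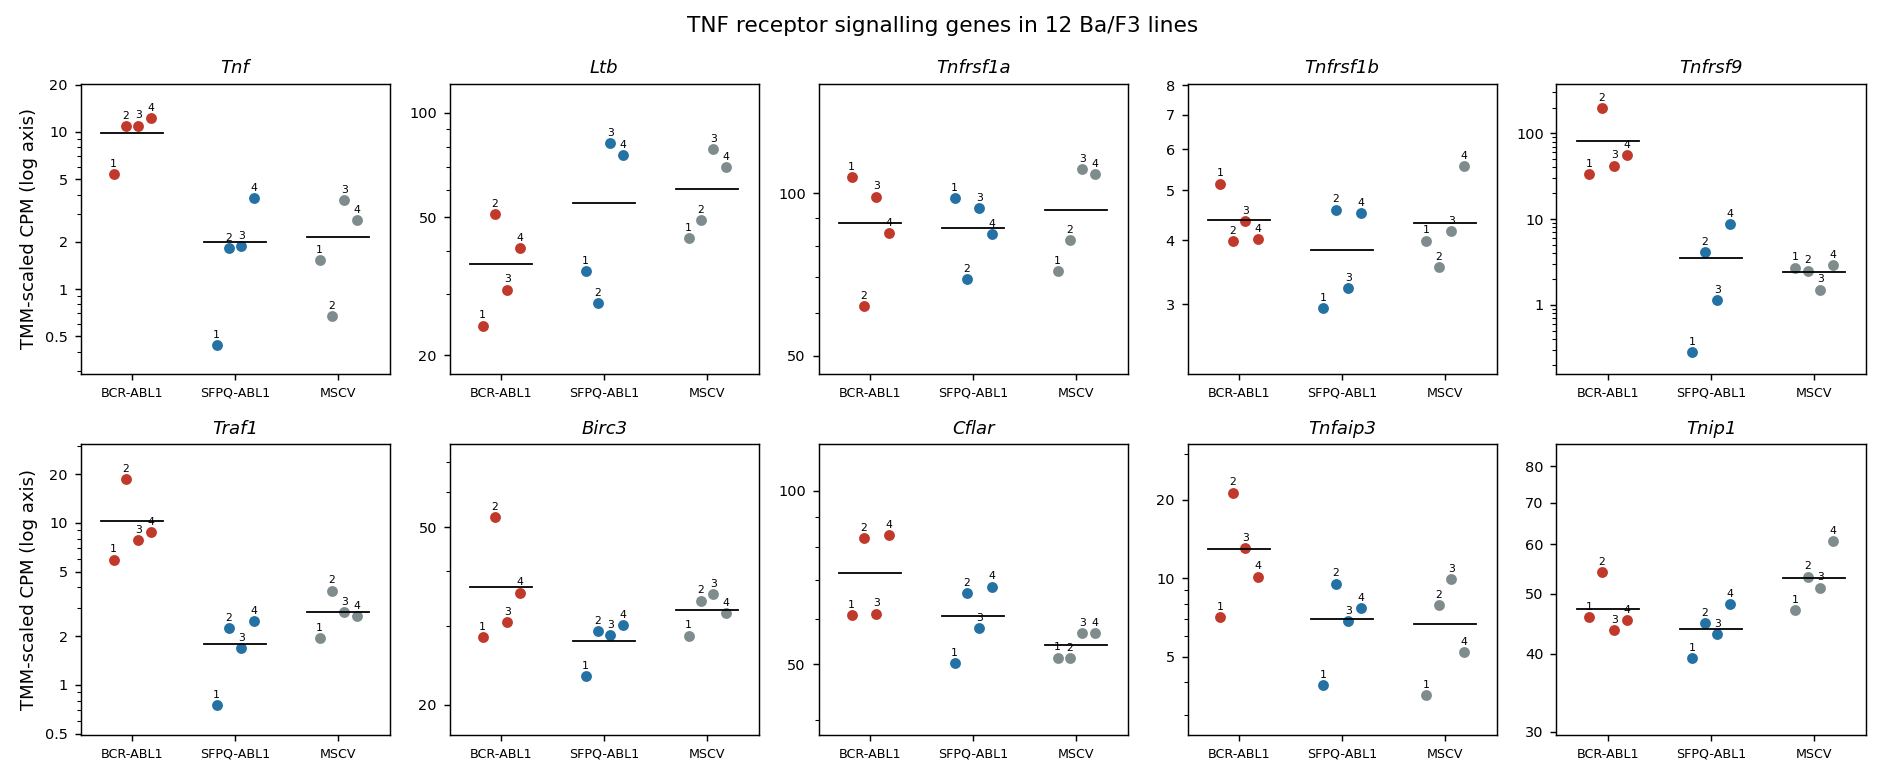
Library-scaled CPM of each of the 10 genes on a log axis in the 4 BCR-ABL1, 4 SFPQ-ABL1 and 4 MSCV lines; each point is a line and each bar the group mean. BCR-ABL1 lines lie above all other lines for Tnf, Tnfrsf9 and Traf1, while the groups overlap for Tnfrsf1a, Tnfrsf1b and Ltb.

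Birc3 encodes cIAP2, a ubiquitin ligase of the receptor complex. The gene (ENSMUSG00000032000, mm10 chr9:7848699-7873186) had 28.4, 52.6, 30.6 and 35.7 CPM in BCR-ABL1 lines, 23.2, 29.3, 28.7 and 30.2 CPM in SFPQ-ABL1 lines, and 28.6, 34.3, 35.5 and 32.1 CPM in MSCV lines. Apart from BCR-ABL1 line 2, the lines of all groups lay close together. The log2 fold change was 0.18 for BCR-ABL1 against MSCV (95% interval -0.19 to 0.54, edgeR adjusted p = 0.460), and it was -0.05 without BCR-ABL1 line 2. For SFPQ-ABL1 against BCR-ABL1 it was -0.41 (95% interval -0.77 to -0.04, edgeR adjusted p = 0.0953), and the adjusted p was 0.0416 without BCR-ABL1 line 1. SFPQ-ABL1 against MSCV gave -0.23 (95% interval -0.59 to 0.14, edgeR adjusted p = 0.500).

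Cflar encodes c-FLIP, which binds FADD and caspase-8 and limits death signalling from the receptors. It (ENSMUSG00000026031, mm10 chr1:58711508-58758884) had 60.8, 82.7, 61.2 and 83.8 CPM in BCR-ABL1 lines, 50.3, 66.6, 57.8 and 68.2 CPM in SFPQ-ABL1 lines, and 51.4, 51.3, 56.6 and 56.7 CPM in MSCV lines. Every BCR-ABL1 line was above every MSCV line, and the SFPQ-ABL1 lines overlapped both groups. The means of 72.1 ± 12.8 CPM in BCR-ABL1 lines and 54.0 ± 3.08 CPM in MSCV lines (SD, n = 4 each) differed by 1.34-fold (log2 fold change 0.42, SE 0.13, 95% interval 0.14 to 0.70, edgeR adjusted p = 0.0248). This call ended, with log2 fold changes of 0.34 to 0.40, without BCR-ABL1 line 2 (adjusted p = 0.0801), BCR-ABL1 line 4 (0.0795), MSCV line 1 (0.0527) or MSCV line 2 (0.0520). SFPQ-ABL1 against BCR-ABL1 gave -0.25 (95% interval -0.53 to 0.03, edgeR adjusted p = 0.173), and SFPQ-ABL1 against MSCV gave 0.17 (95% interval -0.11 to 0.45, edgeR adjusted p = 0.517).

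Tnfaip3 encodes A20, an editor of ubiquitin chains that restrains NF-kB signalling, and Tnip1 encodes its partner ABIN-1. Tnfaip3 (ENSMUSG00000019850, mm10 chr10:19000910-19015657) had 7.12, 21.3, 13.1 and 10.2 CPM in BCR-ABL1 lines, 3.90, 9.55, 6.84 and 7.72 CPM in SFPQ-ABL1 lines, and 3.57, 7.92, 9.96 and 5.22 CPM in MSCV lines. BCR-ABL1 line 2 was the highest of the 12, and BCR-ABL1 line 1 lay among the lines of both other groups. The log2 fold change of BCR-ABL1 against MSCV was 0.95 (SE 0.37, 95% interval 0.14 to 1.76, edgeR adjusted p = 0.0683) and did not pass the test. DESeq2 called it (0.97, adjusted p = 0.0224), as did edgeR without BCR-ABL1 line 1 (1.15, adjusted p = 0.0336) and without MSCV line 3 (1.21, adjusted p = 0.0399). Without BCR-ABL1 line 2 the value was 0.60 (adjusted p = 0.240). SFPQ-ABL1 against BCR-ABL1 gave -0.88 (95% interval -1.69 to -0.08, edgeR adjusted p = 0.0993, and 0.0436 in DESeq2). SFPQ-ABL1 against MSCV gave 0.07 (95% interval -0.74 to 0.88, edgeR adjusted p = 0.943).

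Tnip1 (ENSMUSG00000020400, mm10 chr11:54910785-54962917) ranged from 43.7 to 54.2 CPM in BCR-ABL1 lines, from 39.4 to 48.0 CPM in SFPQ-ABL1 lines and from 47.1 to 60.7 CPM in MSCV lines. The groups overlapped, though SFPQ-ABL1 line 4 was the only line of its group above the lowest MSCV line. The log2 fold change of SFPQ-ABL1 against MSCV was -0.28 (95% interval -0.49 to -0.06, unadjusted p = 0.0175 and adjusted p = 0.169 in edgeR), the smallest p of the 10 genes in this comparison. BCR-ABL1 against MSCV gave -0.17 (95% interval -0.38 to 0.05, edgeR adjusted p = 0.232), and SFPQ-ABL1 against BCR-ABL1 gave -0.11 (95% interval -0.33 to 0.11, edgeR adjusted p = 0.452). Tnip1 overlaps Gm12230 on the opposite strand, a gene with 57 counts summed over all libraries.

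Per kilobase of exonic length the order of the genes differed between groups mainly in the place of Tnfrsf9. The highest mean levels in BCR-ABL1 lines were those of Tnfrsf1a at 33.9, Tnfrsf9 at 30.0 and Ltb at 24.2 CPM per kilobase, and the lines of Tnfrsf9 overlapped those of both neighbours in the order. Without BCR-ABL1 line 2, Tnfrsf9 averaged 16.1 CPM per kilobase, below Ltb at 21.1. Tnip1 at 13.4, Birc3 at 7.36, Tnf at 6.02 and Cflar at 5.69 CPM per kilobase followed in BCR-ABL1 lines, of which Birc3, Tnf and Cflar overlapped their neighbours. Tnfaip3 at 1.79, Traf1 at 1.16 and Tnfrsf1b at 1.15 CPM per kilobase came last and overlapped. In SFPQ-ABL1 lines the first ranks were Ltb at 36.3 and Tnfrsf1a at 33.3 CPM per kilobase, which overlapped, and Tnfrsf9, at 1.31, and Tnf, at 1.21, overlapped Tnfrsf1b and Tnfaip3 among the low genes. MSCV lines had Ltb at 39.7, Tnfrsf1a at 36.0, Tnip1 at 15.0, Birc3 at 6.51 and Cflar at 4.26 CPM per kilobase, ahead of Tnf at 1.32, Tnfrsf1b at 1.13, Tnfaip3 at 0.923 and Tnfrsf9 at 0.888, and the first pair and the last 4 of these overlapped their neighbours. Traf1 was lowest in SFPQ-ABL1 lines, at 0.203, and in MSCV lines, at 0.318 CPM per kilobase.

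Within each group the highest or lowest levels of several genes fell in the same line. BCR-ABL1 line 2 had the highest level of its group in 6 of the 10 genes (Ltb, Tnfrsf9, Traf1, Birc3, Tnfaip3 and Tnip1), and BCR-ABL1 line 1 had the lowest in 7. SFPQ-ABL1 line 4 was highest in 6 genes and SFPQ-ABL1 line 1 lowest in 8, and MSCV line 3 was highest in 5 and MSCV line 1 lowest in 6. How often these lines were highest or lowest over all genes was not counted, so these counts have no background beside them. Whether they are particular to the 10 genes is not known. The mast cell and basophil markers of BCR-ABL1 line 2 did not all move together. Cpa3 stood at 41.8 CPM in that line and 0.887 to 4.56 CPM in the other BCR-ABL1 lines. Fcer1a was at 2.55 CPM in that line and 0 to 0.117 CPM in the others, and Ms4a2 at 7.78 CPM against 4.76 to 6.41 CPM. Mcpt8 was near 0, at 0.0407 CPM in that line and 0 to 0.0149 CPM in the others. Hdc went the other way, at 0.488 CPM in that line and 1.24 to 2.21 CPM in the others. Kit, Tpsb2 and Prss34 were at 0 in all BCR-ABL1 lines. Without BCR-ABL1 line 2, Tnf was 4.42-fold higher (edgeR adjusted p = 0.0236) and Traf1 2.67-fold higher (edgeR adjusted p = 0.0102) in BCR-ABL1 than in MSCV lines.

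The genes most like each called member were sought among 9406 genes by the root mean square difference of centred log2 CPM over the 12 lines, in which a smaller number is a closer match. Nearest to Tnf were Il2rb, a chain of the interleukin-2 receptor, at 0.56 and Ero1l at 0.59, where Tnf itself had a root mean square of 1.46 about its mean. Il2rb averaged 22.5 CPM in BCR-ABL1 lines, 6.76 CPM in SFPQ-ABL1 lines and 5.96 CPM in MSCV lines. Nearest to Traf1 were Nfkbia, the NF-kB inhibitor I kappa B alpha, at 0.33 and Id2 at 0.38, against 1.19 for Traf1 itself. Nearest to Tnfrsf9 were Lgmn at 0.93 and the receptor gene Tlr4 at 1.08 against 2.61 for Tnfrsf9 itself. Cflar was closest to Zeb1 and Jmjd1c, both at 0.09, against 0.24 for Cflar itself.

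Other TNF family receptors were called in both directions, and the ligands that were called in BCR-ABL1 against MSCV were all higher. Of 18 tested receptors (25 listed), 2 were higher and 2 lower in BCR-ABL1 than in MSCV lines, beside 15.8% higher and 16.3% lower over all genes, with a median log2 fold change of 0.03 against -0.01 over all genes. That share of calls was not above the 32.1% of all genes. Eda2r, the receptor for an ectodysplasin isoform, averaged 46.7 ± 16.1 CPM in BCR-ABL1 lines and 9.74 ± 4.16 CPM in MSCV lines (SD, n = 4 each), 4.80-fold higher (edgeR adjusted p = 0.000510). Tnfrsf12a, the receptor for TWEAK, was 2.46-fold higher and Tnfrsf14, the receptor HVEM, 3.91-fold lower. Of 7 tested ligands (16 listed), 3 were higher in BCR-ABL1 than in MSCV lines, beside 15.8% over all genes, and 0 lower, namely Lta, Tnfsf14 (LIGHT, a ligand of HVEM) at 4.34-fold and Tnfsf4 (the ligand of OX40) at 2.84-fold. In SFPQ-ABL1 against BCR-ABL1, 5 of the 7 ligands were lower and 0 higher, beside 12.8% lower and 13.2% higher over all genes, with a median log2 fold change of -1.07 against 0.01 over all genes. Among them was Tnfsf9, the ligand of the 4-1BB receptor encoded by Tnfrsf9, which averaged 4.82 ± 1.92 CPM in SFPQ-ABL1 lines and 10.1 ± 3.49 CPM in BCR-ABL1 lines (SD, n = 4 each), 2.09-fold lower (edgeR adjusted p = 0.0315). Of the 18 receptors, 2 were higher and 3 lower in SFPQ-ABL1 than in BCR-ABL1 lines, and Fas, the death receptor, averaged 1.34 CPM in SFPQ-ABL1 lines and 4.06 CPM in BCR-ABL1 lines (edgeR adjusted p = 0.00169).

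Components of the receptor complex were called in both directions. Of 26 tested, 6 were higher and 5 lower in BCR-ABL1 than in MSCV lines, beside 15.8% higher and 16.3% lower over all genes, and the median log2 fold change was 0.01. Chuk (IKK alpha) averaged 120 CPM in BCR-ABL1 lines and 75.0 CPM in MSCV lines, and Tab2, an adaptor of the kinase TAK1, averaged 464 CPM in BCR-ABL1 lines and 262 CPM in MSCV lines. Tradd, the adaptor of TNF receptor 1, averaged 12.2 CPM in BCR-ABL1 lines and 20.7 CPM in MSCV lines, and Sharpin, a subunit of the linear ubiquitin ligase, 33.9 CPM in BCR-ABL1 lines and 55.9 CPM in MSCV lines. All 4 were called by edgeR, with adjusted p from 0.000134 for Chuk to 0.00112 for Tab2. Between the fusions 3 of the 26 were higher and 3 lower in SFPQ-ABL1 lines, beside 13.2% higher and 12.8% lower over all genes.

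The death arm held 9 tested genes, of which 3 were higher and 3 lower in BCR-ABL1 than in MSCV lines, beside 15.8% higher and 16.3% lower over all genes. Ripk3, the kinase of necroptosis, averaged 2.45 ± 1.09 CPM in BCR-ABL1 lines and 0.184 ± 0.138 CPM in MSCV lines (SD, n = 4 each). The difference was 13.0-fold (edgeR adjusted p = 0.000612) and rests on a low level in MSCV lines. Ripk3 was 6.29-fold lower in SFPQ-ABL1 than in BCR-ABL1 lines (edgeR adjusted p = 0.00453). Mlkl, the substrate of Ripk3, was lower in BCR-ABL1 than in MSCV lines (log2 fold change -0.27, edgeR adjusted p = 0.0432). Between the fusions Mlkl averaged 64.9 CPM in SFPQ-ABL1 lines and 49.2 CPM in BCR-ABL1 lines (edgeR adjusted p = 0.00749). Bid, which links caspase-8 to mitochondrial death, was 1.45-fold higher in BCR-ABL1 than in MSCV lines. Of 15 tested further inhibitors of the pathway, Tnip2, a relative of Tnip1, was the only call in BCR-ABL1 against MSCV, at 21.3 CPM in BCR-ABL1 lines and 26.4 CPM in MSCV lines (edgeR adjusted p = 0.0434). Zfp36, which destabilises Tnf mRNA, was the only call of these 15 between the fusions, at 5.81 ± 1.72 CPM in SFPQ-ABL1 lines and 17.8 ± 6.88 CPM in BCR-ABL1 lines (SD, n = 4 each, edgeR adjusted p = 0.00178). Over all genes, 32.1% were called in BCR-ABL1 against MSCV and 26% between the fusions. The 1 call of 15 was below that share in both comparisons.

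Among NF-kB subunits and inhibitors, 8 of 10 tested were higher in BCR-ABL1 than in MSCV lines and 0 lower, beside 15.8% higher over all genes, with a median log2 fold change of 0.81 against -0.01 over all genes. Between the fusions 5 of 10 were lower in SFPQ-ABL1 lines, beside 12.8% over all genes, among them Nfkbia at 14.0 CPM in SFPQ-ABL1 lines and 55.1 CPM in BCR-ABL1 lines. All 6 lists were chosen with earlier results of these data known, so their counts are a description and not a test of the lists. Nfkb1 was the only gene of all 6 lists called between SFPQ-ABL1 and MSCV lines, at 207 ± 23.8 CPM in SFPQ-ABL1 lines and 126 ± 24.9 CPM in MSCV lines (SD, n = 4 each, edgeR adjusted p = 0.0207). The 6 lists held 18, 7, 26, 9, 15 and 10 tested genes, and 1.79% of all genes were called in this comparison. A single call is thus not above the share over all genes.

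**Figure D3:**
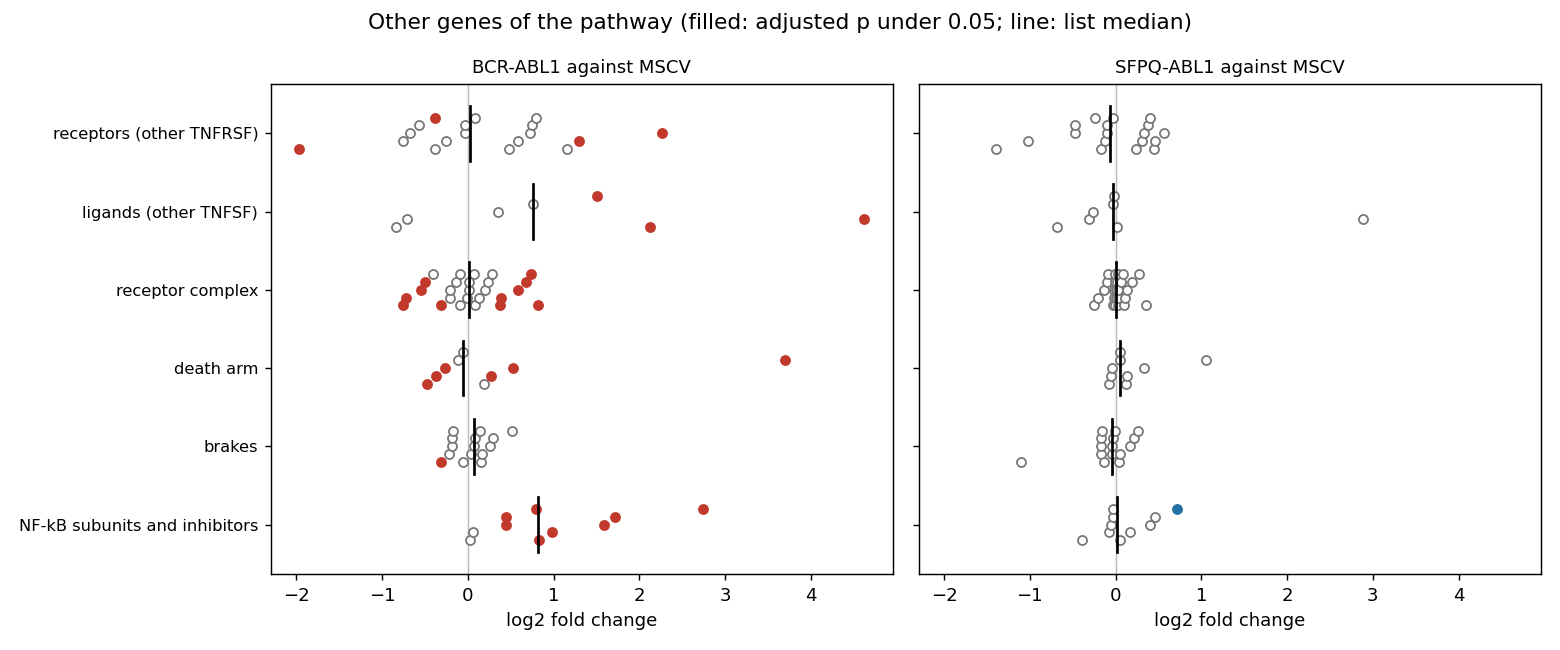
Log2 fold change of each tested gene in the 6 lists of further pathway genes, for BCR-ABL1 against MSCV (left) and SFPQ-ABL1 against MSCV (right), which share the MSCV lines; filled points passed an adjusted p under 0.05 and vertical lines are list medians. NF-kB subunits and inhibitors had 8 of 10 filled points above 0 in BCR-ABL1 against MSCV, and a single gene, Nfkb1, is filled in SFPQ-ABL1 against MSCV. Over all genes, 15.8% were called higher in BCR-ABL1 against MSCV, and 1.79% were called in SFPQ-ABL1 against MSCV. The lists were chosen with earlier results of these data known.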

How the data were processed

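Gene counts and exon counts of 12 libraries, with Ensembl identifiers and no normalization, are as the authors deposited them. Subread and featureCounts were used on mm10, per the submitters' processing notes, and the sources used here do not give versions, annotation release or use of strand. Reads of overlapping genes, such as Tnfrsf9 and Camta1, may therefore be shared. GENCODE M21 (mm10) gave symbols and coordinates. Exon totals were 18.0% of gene totals, so the exon table holds only some of the reads.

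Counts were analysed in R 4.3.3. Genes were filtered with filterByExpr and scaled by TMM factors, and edgeR 4.0.16 (glmQLFit, glmQLFTest) took all 12 libraries in a single fit whose only term was the group. Calls had a two-sided Benjamini-Hochberg adjusted p under 0.05. Standard errors are the log2 fold change divided by the root of the quasi-F value, and 95% intervals follow from them. CPM of markers and exons are scaled by gene totals only. Alternatives included DESeq2 1.42.0 and limma-voom (limma 3.58.1). The edgeR test was first run on simulated data, the other tools were not. Replicate pairs differed by a chi-square of 33.1 to 182 per degree of freedom (18 pairs, genes with at least 50 summed counts), so each library counted once. Counts are PCR reads without molecular identifiers.

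All 10 genes are named. Of each of 6 lists of further pathway genes, up to 4 called genes with the smallest adjusted p per comparison could be named, as could the 2 genes most like each called member among protein-coding genes with a mean of at least 5 CPM. The members and lists were chosen with earlier results of these data known. Promoter sequences are from RefSeq (GRCm38.p6).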

Additional observations from a re-analysis of the deposited data

Results flagged for a closer look

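Tnfrsf9 stood at 196 CPM in BCR-ABL1 line 2, far from the other BCR-ABL1 lines: its gap to the nearest of them was 0.866 of the range of the group, above Dixon's critical value for 4 samples at the 95% level. This was 1 of 33 groups of 4 lines tested, and chance gives about 1 in 20. The response relative to MSCV differed between the fusions in 3 of the 10 genes, each tested directly as SFPQ-ABL1 against BCR-ABL1. The same test called 26% of all genes, so this count is near the share over all genes. The log2 difference was -2.32 for Tnf, -4.54 for Tnfrsf9 and -2.52 for Traf1. No cause was tested.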

How the results depend on the processing

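The 30 log2 fold changes of the 10 genes were recomputed under 21 alternatives. Of these 630 values, 589 kept direction and side of the threshold, 5 lost the call, 10 gained one and 26 changed sign, with 0 of the last called. Tnf, Tnfrsf9 and Traf1 kept their calls in both comparisons with BCR-ABL1 lines under all 21: against MSCV their log2 fold changes spanned 1.90 to 2.58, 4.17 to 5.33 and 1.42 to 2.07, and for SFPQ-ABL1 against BCR-ABL1 -2.83 to -1.98, -5.46 to -3.64 and -2.72 to -2.07. Without both BCR-ABL1 line 4 and SFPQ-ABL1 line 2, chosen after seeing the data because their fusion exon counts stood apart, the Cflar call ended (adjusted p = 0.0800). With no filter on low counts Tnfaip3 was called in BCR-ABL1 against MSCV (adjusted p = 0.0462), and with exon counts summed per gene Cflar was called between the fusions (-0.43, adjusted p = 0.0357). Signs changed, on leaving out a line, in BCR-ABL1 against MSCV for Tnfrsf1b (-0.073 to 0.16, and -1.45e-05 with no filter), Tnfrsf1a (-0.20 to 0.051) and Birc3 (-0.049 to 0.28). In SFPQ-ABL1 against MSCV they did for Tnfrsf9 (-0.39 to 0.93, and -0.39 with limma-voom), Tnf (-0.64 to 0.26, and 0.15 with exon sums), Ltb (-0.39 to 0.088, and 0.088 without BCR-ABL1 line 4 and SFPQ-ABL1 line 2) and Tnfaip3 (-0.13 to 0.33, and -0.12 without those lines). Between the fusions they did for Tnfrsf1a (-0.17 to 0.081, 0.040 without normalization factors and 0.04 without those lines). The receptor ratio of SFPQ-ABL1 against MSCV ranged from -0.28 to 0.094 on leaving out a line. The cause was not tested. The count of all genes called between SFPQ-ABL1 and MSCV, 308, was 1131 with DESeq2, 110 with only the 8 libraries compared and 498 without BCR-ABL1 line 4 and SFPQ-ABL1 line 2. It ranged from 33 to 467 on leaving out a line: 33 without MSCV line 3, 84 without MSCV line 2 or 4, 71 without SFPQ-ABL1 line 4, 108 without SFPQ-ABL1 line 1, 128 without SFPQ-ABL1 line 3, 168 without BCR-ABL1 line 3 and 467 without SFPQ-ABL1 line 2. None of the 10 genes was called there under any alternative.

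The labels do not say that a replicate number marks a shared batch, and not every pair of same-numbered lines deviated together, so the numbers were not taken as pairs: deviations of same-numbered lines correlated from -0.0063 to 0.268 (BCR-ABL1 and MSCV), 0.0665 to 0.385 (SFPQ-ABL1 and MSCV) and 0.0496 to 0.356 (SFPQ-ABL1 and BCR-ABL1), and 2, 4 and 6 of 8 lines correlated best with their own number. With the number as a replicate block, 726 genes were called between SFPQ-ABL1 and MSCV. The block called 5 of the 10 genes between the fusions, Birc3 (adjusted p = 0.0446) and Tnfaip3 (adjusted p = 0.00684) beside Tnf, Tnfrsf9 and Traf1. It also called Tnfaip3 in BCR-ABL1 against MSCV (adjusted p = 0.00296). Over all genes the block called more than the main fit in both comparisons with MSCV, 6307 against 5522 for BCR-ABL1 and 726 against 308 for SFPQ-ABL1. Its share of all genes between the fusions is not given here, so the 5 genes have no background beside them. For low genes depth limits the precision: 1 CPM was 59.4 to 80.6 counts, and Lta had 1 to 5 counts in MSCV lines.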
